A study of Homo sapiens with 6 samples.

Results

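The genes described here encode the coat and accessory proteins of caveolae and the flotillins. They are the caveolins CAV1 and CAV2, cavin-1 (listed under its older symbol PTRF), the ATPases EHD1, EHD2, EHD3 and EHD4, the membrane-bending protein PACSIN2, and the flotillins FLOT1 and FLOT2. They were chosen by name, with earlier results of these data known, and all 10 were found among the 25680 gene symbols of each library. The libraries came from U87, an established human glioblastoma cell line labelled wild type. All cells had been exposed to a rhodamine-tagged cyclic peptide, EPP6, at 500 nM and 37C for 1 h, and were then detached and sorted by fluorescence (rhodamine is a red dye). Cells in the brightest 30% are called high uptake and cells in the dimmest 30% low uptake, with 3 libraries each, numbered 2, 3 and 4. No untreated or unsorted cells stand beside them, the number of clones or cultures behind the replicates is not given in the labels, and p-values measure the spread between these libraries, which may be technical.

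Caveolae are small flask-shaped pits of the plasma membrane, rich in cholesterol and sphingolipids, that are common in fibroblasts, endothelium, muscle and fat and in many mesenchymal-type tumour lines. CAV1 oligomerises into the coat with CAV2, cavin-1 polymerises on top of it from the cytosol, EHD2 sits as a ring at the neck and holds the pit at the surface, and PACSIN2 shapes the neck. EHD1, EHD3 and EHD4 act mainly on recycling and sorting endosomes. FLOT1 and FLOT2 form hetero-oligomers on the inner leaflet and mark membrane domains that are separate from caveolae. These proteins bear on the question of the series, which asks which proteins take part in taking up cyclic peptides.

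Total counts per library ranged from 13712263 to 40742857. Among markers of cell types, VIM and CD44 were high in every library, as in mesenchymal glioma lines, while GFAP and OLIG2 averaged under 2 CPM (counts scaled to library size, per 1000000) and SOX2 had at most 1 count. Summed CPM of the 6 endothelial markers was 8.89 to 9.66 in high and 9.50 to 9.93 in low uptake, and of the 4 fat-cell markers 0.0742 to 0.371 and 0.293 to 0.455; ADIPOQ and MYOD1 were at 0 in all 6 libraries. The 5 muscle markers summed to 6.68 to 7.87 and 6.24 to 7.27 CPM, nearly all of it MYH11, and the 5 immune markers to 258 to 284 and 234 to 283 CPM, nearly all of it CD68. The 4 epithelial markers summed to 1.16 to 1.29 and 1.24 to 1.41 CPM and the 4 neuronal markers to 1.81 to 2.45 and 1.84 to 3.0 CPM. No marker on these lists passed the test between high and low uptake. Within the endothelial list TEK lay higher in high uptake (3.36 to 3.56 against 2.0 to 2.85 CPM, adjusted p = 0.131) and KDR lower (3.76 to 4.82 against 5.87 to 6.50 CPM, adjusted p = 0.0819), each without overlap. On the other lists CD44 lay higher without overlap (1894 to 2033 against 1734 to 1777 CPM, adjusted p = 0.230 in edgeR). OLIG2 (adjusted p = 0.320) and EPCAM (0.824) lay lower without overlap. Of all tested genes, 24.4% had no overlap. CD44, TEK and KDR are in the authors' deposited table, and the part of these markers in the results was not tested.

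The region just before the first annotated start of 4 of these genes is shown because CAV1 and EHD2 stood higher in high uptake while CAV2 and EHD4 did not. CAV1 and CAV2 lie next to each other on chromosome 7. Each run is the 250 bases upstream of the start, from the RefSeq table of build GRCh38.p14 (the deposited files use hg19), and capitals mark GC boxes (GGGCGG on either strand).
CAV1 (chr7:116524759-116525008, + strand): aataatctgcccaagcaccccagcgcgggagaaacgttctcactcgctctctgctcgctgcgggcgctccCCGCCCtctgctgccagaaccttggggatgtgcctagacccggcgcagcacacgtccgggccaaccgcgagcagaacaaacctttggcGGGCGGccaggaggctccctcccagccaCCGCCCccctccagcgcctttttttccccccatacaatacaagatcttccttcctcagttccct
CAV2 (chr7:116499488-116499737, + strand): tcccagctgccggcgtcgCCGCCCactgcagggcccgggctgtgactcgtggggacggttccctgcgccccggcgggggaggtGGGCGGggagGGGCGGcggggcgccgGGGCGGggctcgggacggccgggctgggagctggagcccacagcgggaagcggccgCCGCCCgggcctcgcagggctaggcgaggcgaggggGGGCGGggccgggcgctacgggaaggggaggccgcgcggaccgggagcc
EHD2 (chr19:47713172-47713421, + strand): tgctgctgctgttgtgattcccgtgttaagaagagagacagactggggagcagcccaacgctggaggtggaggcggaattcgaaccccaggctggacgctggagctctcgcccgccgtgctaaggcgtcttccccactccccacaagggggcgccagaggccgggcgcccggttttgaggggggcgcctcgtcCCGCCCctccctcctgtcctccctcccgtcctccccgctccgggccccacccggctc
EHD4 (chr15:41972558-41972807, - strand): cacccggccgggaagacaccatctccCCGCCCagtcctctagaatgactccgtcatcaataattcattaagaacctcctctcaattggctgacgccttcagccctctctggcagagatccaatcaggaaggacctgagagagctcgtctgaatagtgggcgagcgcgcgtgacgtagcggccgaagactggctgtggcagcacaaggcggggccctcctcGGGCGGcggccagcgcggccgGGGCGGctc
GC boxes numbered 3 in CAV1, 6 in CAV2, 1 in EHD2 and 3 in EHD4, and 42.6% of all 35116 upstream windows of this length held at least 1. EHD4 also held the CCAAT box (CCAAT, either strand) at 2 places, against 32% of all windows with at least 1, while a TATA box (TATAAA, 10.7% of windows) was found in none of the 4. GC content was 63.6% for CAV1, 83.2% for CAV2, 69.6% for EHD2 and 63.2% for EHD4, with a median of 58.0% over all windows. These matches are descriptions of letters, and binding was not measured.

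On the authors' per-length scale (TPM, transcripts per 1000000), CAV1 and cavin-1 were the most abundant of the 10. Over the 6 libraries CAV1 ranged from 394 to 567 TPM and cavin-1 from 353 to 463 TPM, and these ranges overlapped. EHD1 followed at 252 to 339 TPM. EHD2 (90.6 to 149 TPM) and FLOT2 (76.6 to 104 TPM) overlapped each other, with PACSIN2 (50.9 to 56.8 TPM) and EHD4 (27.5 to 46.6 TPM) below them. EHD3 (14.9 to 20.3 TPM) and CAV2 (11.4 to 18.0 TPM) were the lowest of the 9 genes with more than single counts, and also overlapped. The 2 main coat genes were thus at a like level and CAV2 well below both. FLOT1 was listed at 1 count or none in every library and is described last.

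Of the 10 genes, 9 passed the filter on low counts and entered edgeR's quasi-likelihood test over 14598 genes. CAV1 and EHD2 rose in high uptake and none fell, at an adjusted p under 0.05 (Benjamini-Hochberg over all tested genes). Of all tested genes, 3.03% were higher and 1.26% lower by the same rule, 4.29% in all. The 2 members with an unadjusted p under 0.05 that pointed lower were EHD4 and FLOT2. The median log2 fold change of the 9 was 0.04, and that of all tested genes was -0.00. At an unadjusted p under 0.05 there were 4 of 9 against 2679 of 14598. The groups did not overlap for CAV1, EHD2 and EHD4, 3 of 9, and for 24.4% of all tested genes. The authors' deposited table, a list of 2305 gene symbols without values (8.98% of all symbols), holds CAV1, EHD2, EHD4 and FLOT2. That list contains 620 of the 626 genes called here (99.0%), which make up 26.9% of it.

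Other fits changed the calls of EHD2 and EHD4, and some those of CAV1 and FLOT2. CAV1 lost its call with library size alone as the scaling (adjusted p = 0.0508 in edgeR) and without some single libraries. These fits and those in which FLOT2 passed are given with each gene below. DESeq2 called CAV1 and EHD2 higher and EHD4 lower, where it called 4.02% of all genes higher and 1.91% lower (5.93% in all). limma-voom called CAV1 alone, against 2.91% higher and 4.13% in all. edgeR without a filter called CAV1, EHD2 and EHD4, against 2.89% higher, 1.43% lower and 4.31% in all. Without both libraries numbered 2 it called CAV1 and EHD2, against 3.62% higher, 1.89% lower and 5.51% in all, and with the trend over gene length removed CAV1 alone, against 2.19% higher and 3.19% in all.

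**Figure D1:**
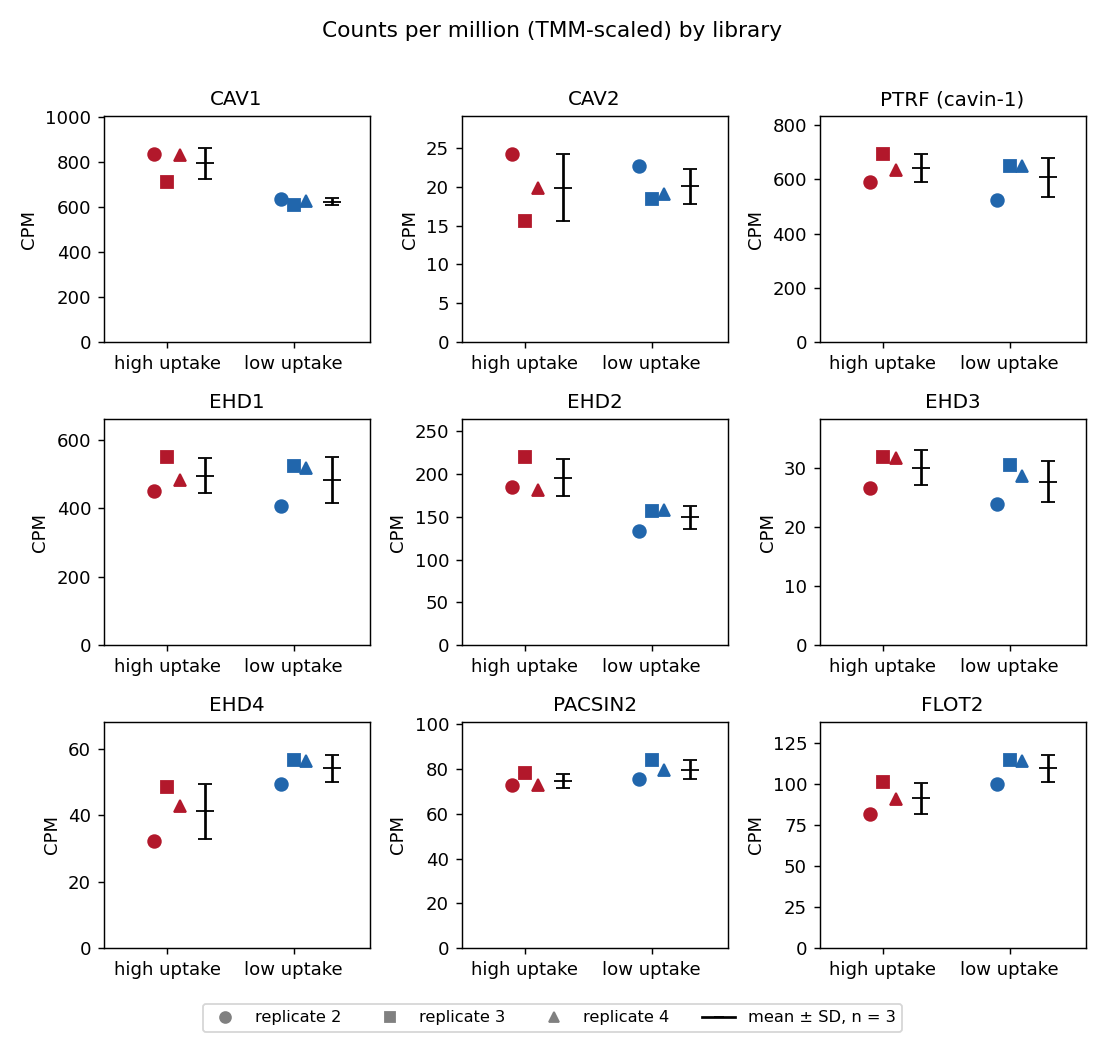
TMM-scaled CPM (y axis, from 0) of the 9 tested genes in each high-uptake (red) and low-uptake (blue) library, with the mean ± SD of 3 libraries in black. The red and blue points do not overlap for CAV1, EHD2 and EHD4, and overlap for the other 6.

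CAV1, the principal coat protein of caveolae, stood at 836, 713 and 832 CPM in high-uptake replicates 2, 3 and 4 and at 638, 607 and 626 CPM in low-uptake replicates 2, 3 and 4. All 3 high values lay above all 3 low values, with high replicate 3 nearest to them, and the low values were close together. Means were 794 ± 70.1 and 624 ± 15.4 CPM (SD, n = 3 each). The difference was 1.27-fold, or 0.35 on the log2 scale (SE 0.0789, 95% interval 0.18 to 0.52, adjusted p = 0.0319 in edgeR). It was similar within the libraries numbered 2 (log2 0.39) and in a fit without them (log2 0.33, adjusted p = 0.0270). DESeq2 (adjusted p = 0.00339) and limma-voom (0.0292) also called CAV1, but leaving out a single library ended the call for high replicates 2 (0.0926) and 4 (0.103) and for low replicates 3 (0.128) and 4 (0.134), as did a fit with library size alone as the scaling (0.0508). Over all genes, low replicates 3 and 4 were more alike than any other pair within a group. Their counts differed by a chi-square per degree of freedom of 2.35, against 11.5 to 19.6 for the other pairs. The reason was not tested. A difference of fewer CAV1-rich cells and one of less CAV1 RNA per cell cannot be told apart in such bulk libraries.

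CAV2, the partner that enters the coat together with CAV1, gave 24.2, 15.6 and 19.8 CPM in high uptake and 22.6, 18.4 and 19.0 CPM in low uptake. The groups overlapped, and both the highest and the lowest value were in high uptake. On the log2 scale it differed by 0.00 (SE 0.147), with an adjusted p of 0.993 and a 95% interval of 0.802-fold to 1.25-fold. CAV1 TPM per CAV2 TPM was 31.2, 41.3 and 37.9 in high-uptake replicates 2, 3 and 4 against 25.5, 29.8 and 29.8 in low uptake. The groups did not overlap in this ratio, which on the log2 scale of CAV2 over CAV1 was lower by 0.37 in high uptake. An exact two-sided permutation test gave p = 0.1, the smallest that 3 against 3 allows, and 0.15 after Benjamini-Hochberg adjustment over the 3 ratios and shares tested among these genes.

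Cavin-1, which coats the pit from the cytosol and is needed for its shape, stood at 592, 694 and 636 CPM in high uptake and at 525, 648 and 650.4 CPM in low uptake. The values overlapped, and in both groups replicate 2 was the lowest. Its log2 fold change of 0.08 (SE 0.0958, adjusted p = 0.740) had a 95% interval of 0.911-fold to 1.22-fold. Cavin-1 TPM over CAV1 TPM was lower by 0.26 on the log2 scale in high uptake, with overlapping groups (exact two-sided permutation p = 0.2, adjusted 0.2). PACSIN2, an F-BAR protein of the caveolar neck, showed the narrowest relative range of the 9, 72.8 to 78.4 CPM in high and 75.6 to 84.2 CPM in low uptake. The log2 difference was -0.10, with an SE of 0.0815, a 95% interval of 0.827-fold to 1.06-fold and an adjusted p of 0.587.

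EHD2, the ATPase that anchors caveolae at the surface, gave 185, 220.1 and 182 CPM in high-uptake replicates 2, 3 and 4 and 133, 157 and 158 CPM in low uptake. All high values exceeded all low values, and high replicate 3 was the highest. Its 1.31-fold difference (log2 0.39, SE 0.0987, 95% interval 0.17 to 0.61) lay just under the threshold at adjusted p = 0.0492. Without any single library the call was lost (adjusted p from 0.0704 to 0.114, log2 from 0.29 to 0.45), as it was with RLE, upper quartile or no scaling, with limma-voom, with a filter of 50 counts and with the length trend removed (0.0537 to 0.0759). DESeq2 (0.00750), the fit without a filter (0.00751) and that without both libraries numbered 2 (0.0198) kept it. Only 5 of the 4502 50-base words of the longest EHD1 coding transcript recur in another gene, all in EHD3, and 3 of 3536 in EHD2 recur elsewhere. Reads of that length without mismatches can thus be told apart from other GENCODE transcripts over nearly all of both genes. Matches with mismatches and sequence outside these transcripts were not examined. FLOT1, at 1 count or none, also had 0 of 1863 words shared, so this check does not show how reads were counted.

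The stretch that EHD1 and EHD3 share in full, 54 bases inside both open reading frames, is printed below. It holds the only exact 50-base matches found between the longest coding transcripts of these paralogues (GENCODE release 29 transcripts, 5′ to 3′).
EHD1 and EHD3: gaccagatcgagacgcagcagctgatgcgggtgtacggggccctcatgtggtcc

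EHD4, a paralogue that acts on early endosomes, pointed the other way. It stood at 32.3, 48.5 and 42.8 CPM in high-uptake replicates 2, 3 and 4 and at 49.6, 56.8 and 56.3 CPM in low uptake. Each low value lay above each high value, by a small margin between high replicate 3 and low replicate 2; such a low-above-high gap was seen in 11.4% of tested genes, and the high-above-low gap of CAV1 and EHD2 in 13.0%. The log2 fold change was -0.41 (SE 0.133, 95% interval -0.70 to -0.11), and adjusted p = 0.121 did not pass in edgeR. Apart from fits with a replicate block, DESeq2 called it lower (adjusted p = 0.0426), as did edgeR without a filter (0.0381) and without high replicate 3 (log2 -0.54, adjusted p = 0.0168). Without high replicate 2 the value was -0.25 (0.30). An antisense gene covers 6.43% of EHD4 exon bases in GENCODE, and with the strand setting of the counting not given its reads cannot be told apart there.

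**Figure D2:**
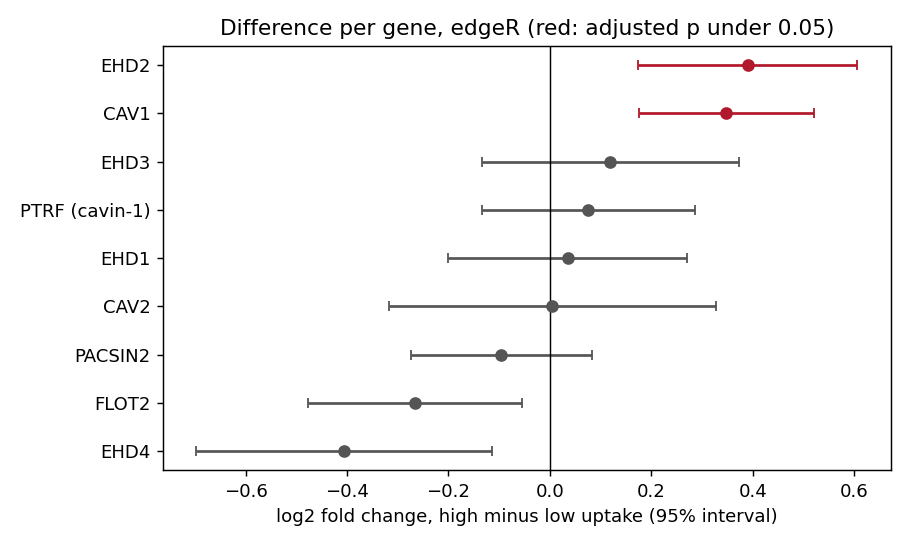
Log2 fold change of the 9 tested genes, high minus low uptake (x axis), with 95% intervals, red where edgeR's adjusted p was under 0.05. CAV1 (0.35) and EHD2 (0.39) are red, and EHD4 (-0.41) and FLOT2 (-0.27) lie on the other side of 0 in grey.

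EHD1, the most abundant of the 4 and a recycling-endosome ATPase, stood at 451, 551 and 484 CPM in high uptake and 407, 525 and 518 CPM in low uptake. These overlapped, and its log2 fold change was 0.04 (SE 0.108, 95% interval 0.871-fold to 1.21-fold, adjusted p = 0.910). EHD3, also of recycling endosomes, ranged from 26.6 to 31.9 CPM and from 23.9 to 30.5 CPM (log2 0.12, SE 0.116, 95% interval 0.911-fold to 1.29-fold, adjusted p = 0.644). As a share of the summed TPM of the 4 EHD genes, EHD2 made up 28.1%, 27.2% and 25.8% in high-uptake replicates 2, 3 and 4 against 22.7%, 21.4% and 21.7% in low uptake. Every high share lay above every low share, and the means of 27.0% ± 1.15 and 22.0% ± 0.674 (SD, n = 3 each) differed by 5.06 percentage points (exact two-sided permutation p = 0.1, adjusted 0.15). EHD4 went from 9.90% ± 0.494 in low to 7.0% ± 0.812 in high uptake, EHD1 from 64.4% ± 1.16 to 62.2% ± 0.352, and EHD3 from 3.73% ± 0.0932 to 3.82% ± 0.279.

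**Figure D3:**
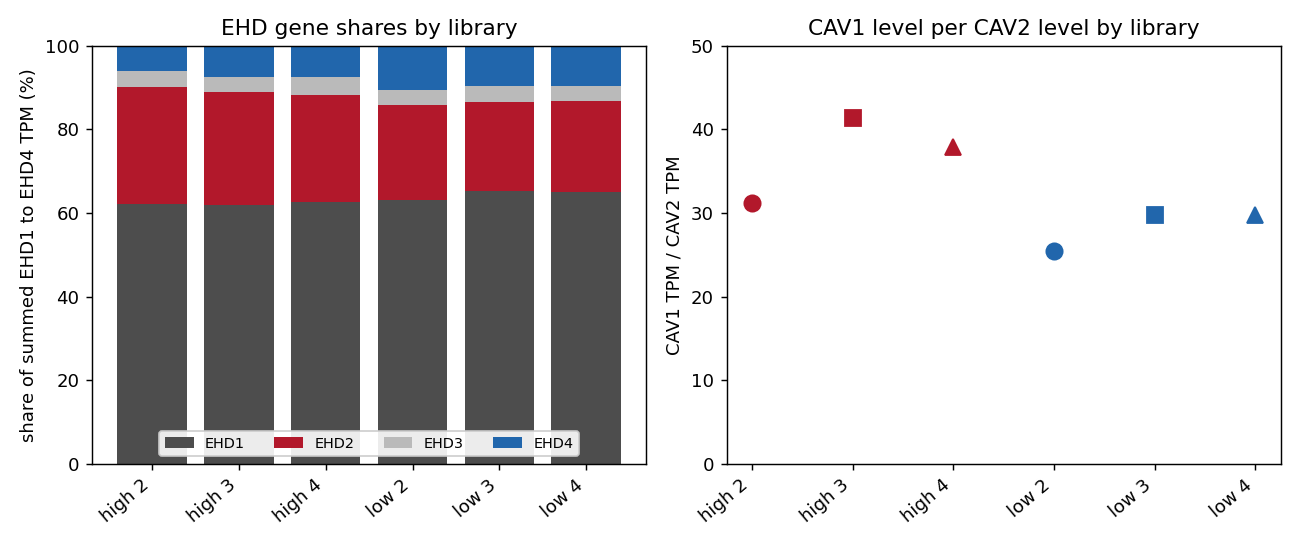
Left, the share of each EHD gene in the summed TPM of EHD1 to EHD4 (y axis, percent) by library; right, CAV1 TPM divided by CAV2 TPM by library, red for high and blue for low uptake. The EHD2 share is 25.8% to 28.1% in high and 21.4% to 22.7% in low uptake, and the CAV1 to CAV2 ratio 31.2 to 41.3 against 25.5 to 29.8.

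FLOT2, a flotillin, stood at 82.0, 101 and 91.1 CPM in high-uptake replicates 2, 3 and 4 and at 100.4, 115 and 114 CPM in low uptake. High replicate 3 lay just above low replicate 2, so the groups overlapped, while the other 2 high values lay below all low values. The log2 fold change was -0.27 (SE 0.0963, 95% interval -0.48 to -0.06) and did not pass at adjusted p = 0.161. DESeq2 (adjusted p = 0.111) and limma-voom (0.152) did not call it either. Apart from fits with a replicate block, it passed only without high replicate 3 (log2 -0.35, adjusted p = 0.0408) and once trends over GC content had been taken out of every library (log2 -0.26, adjusted p = 0.00229), a fit in which 7.90% of all tested genes were lower and 10.1% higher. In that fit 56.2% of all calls were higher, against 70.6% as tested, CAV1 and EHD2 stayed higher (adjusted p = 4.10e-04 and 1.17e-04), and EHD4 had an adjusted p of 0.0607.

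**Figure D4:**
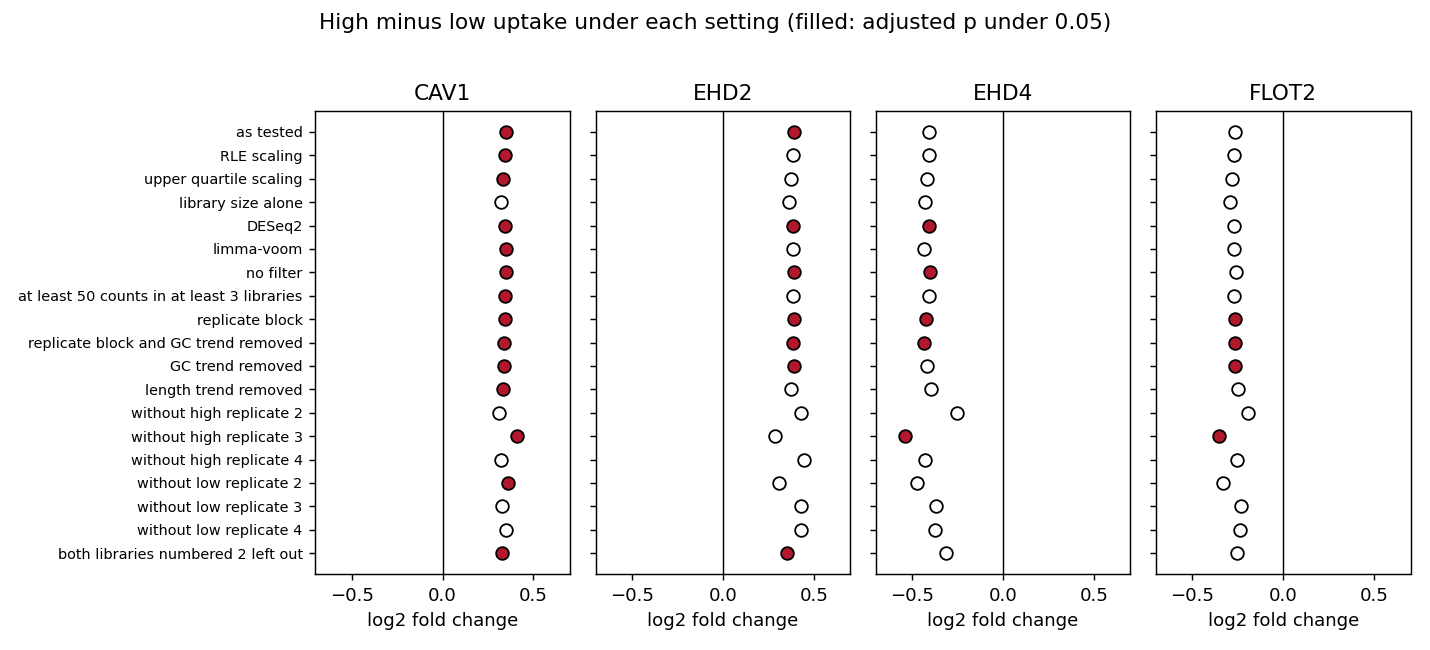
Log2 fold change of CAV1, EHD2, EHD4 and FLOT2 (x axis) as tested and under 18 other settings (y axis), filled where the adjusted p was under 0.05. Each gene stays on its own side of 0 throughout; CAV1 is filled under 13, EHD2 under 6, EHD4 under 5 and FLOT2 under 4 of the 18.

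FLOT1, the partner of FLOT2, had 1 count in high replicates 2 and 3 and none in the other 4 libraries. A count of 0 allows up to 3 counts, by counting error only. In those 4 libraries this is 0.0788 to 0.148 CPM by total counts, without TMM scaling. FLOT1 was not tested, and no fold change is given. The FLOT1 row did not stand alone. Of the 15 protein-coding genes on each side of it in RefSeq gene order on chromosome 6, 25 of 30 had at most 3 counts in every library, against 2 of 30 around FLOT2 and 3 to 8 of 30 around each of the other 8 genes. Its next neighbour TUBB, a major tubulin gene of dividing cells, had 3 to 17 counts.

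The authors' gene-model length, recovered from their FPKM, was also unusual there. For FLOT1 it was 13002 bases, 6.80 times the longest GENCODE transcript of 1912 bases, and over the 17 neighbours with both lengths the ratio had a median of 7.04 and was 2 or more in 16. For FLOT2 it was 2632 bases, 0.955 times its longest transcript, with ratios from 0.394 to 1.27 over its 30 neighbours. Among all 18700 genes with both lengths, 2.33% had a ratio of 2 or more. The overlap of the 2 features was not complete: CCHCR1, with a ratio of 6.15, had 46 to 155 counts, PSORS1C1 had at most 1 count at a ratio of 1.42, and 13 of the 30 neighbours had no ratio. The part of one feature in the other was not tested. With at most 1 count of FLOT1 in any library, no level of FLOT1 is given here, and the FLOT1 to FLOT2 balance was not computed. The neighbours were examined after the FLOT1 counts had been seen.

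**Figure D5:**
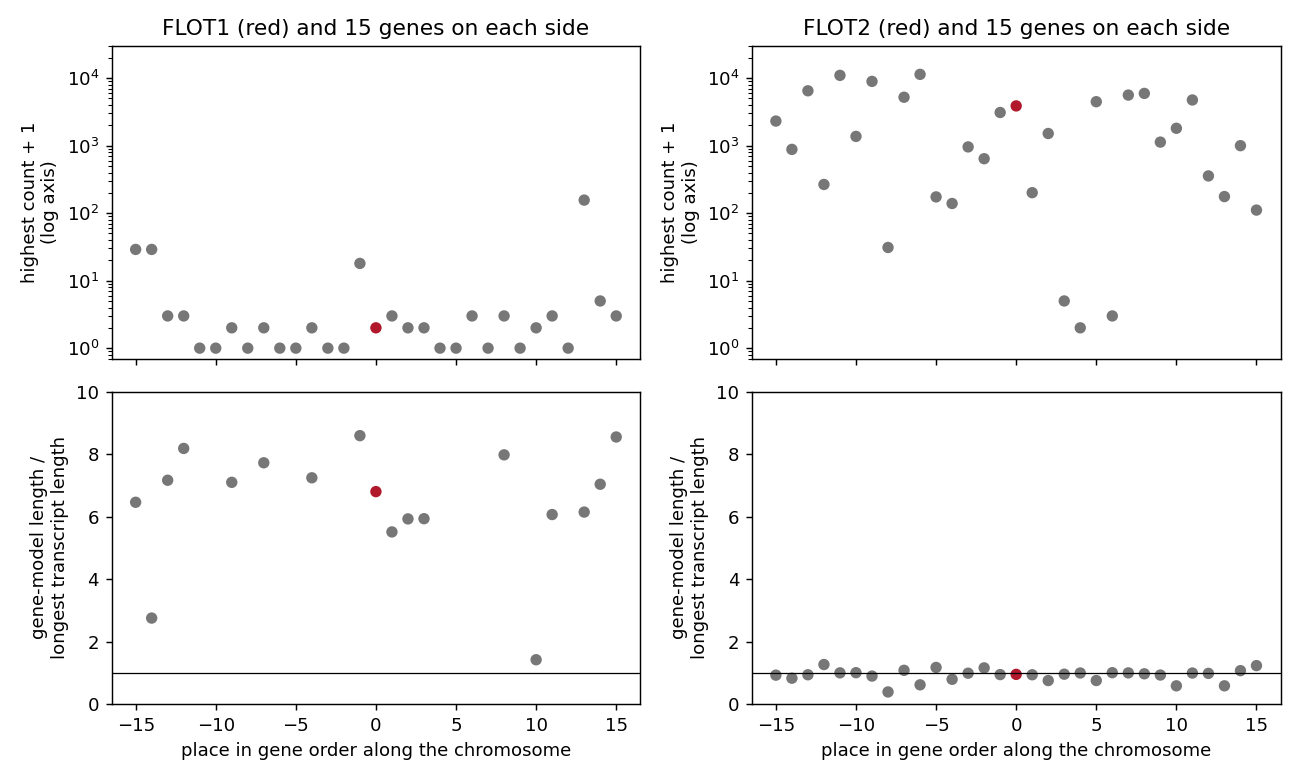
FLOT1 (left) and FLOT2 (right) in red with 15 protein-coding genes on each side in gene order (x axis); top, the highest count of each gene in any library plus 1 (log axis); bottom, the authors' gene-model length over the longest GENCODE transcript, shown where both are known. Around FLOT1, 25 of 30 genes had at most 3 counts and the median ratio was 7.04; around FLOT2 these were 2 of 30 and ratios of at most 1.27.

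Other genes of these membrane domains were described from 6 lists of 60 genes, of which 53 were tested; 5 rose in edgeR, none fell and 48 did not pass. At an unadjusted p under 0.05, 1 pointed lower (PHB), and DESeq2 (8 higher) and limma-voom (5 higher) called none lower. Over all tested genes edgeR called 3.03% higher and 1.26% lower, DESeq2 4.02% and 1.91%, and limma-voom 2.91% and 1.22%. With the GC trend removed edgeR called 14 of the list genes higher and 2 lower, where it called 10.1% and 7.90% of all genes. Their median log2 fold change was 0.08. In the list of other caveolar proteins, 2 of 12 tested rose, with a median of 0.15. FYN, a Src-family kinase that is anchored in rafts and phosphorylates CAV1, stood at 138, 129 and 122 CPM in high and 94.0, 95.6 and 94.4 CPM in low uptake, with no overlap (log2 0.45, SE 0.0780, adjusted p = 0.00891). PRKCA, protein kinase C alpha, rose by 0.39 (532 ± 32.8 against 407 ± 14.1 CPM, adjusted p = 0.0143). The call of FYN was lost without low replicate 4 (adjusted p = 0.0578), and that of PRKCA when high replicate 2 (0.0544) or low replicates 3 (0.0688) or 4 (0.0900) were left out singly.

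The other 10 tested caveolar genes did not pass in edgeR, and their differences from CAV1 were not tested. DESeq2 called 3 of the list higher. Of the 12 tested, 10 had a log2 fold change above 0, against 7191 of 14598 tested genes. ABL1 (log2 0.34, edgeR adjusted p = 0.0705) and DNM3 (0.45, 0.140) had all high values above all low values, as had 13.0% of tested genes. Cavin-3 (PRKCDBP) had a log2 fold change of 0.22 (95% interval 0.02 to 0.42) with overlapping groups (adjusted p = 0.226). ABL1, DNM3 and cavin-3 are in the authors' deposited table. Cavin-4 (MURC, adjusted p = 0.924) and PACSIN3 (0.885) had -0.05 and 0.05. The membrane-severing dynamin DNM2 had 0.12 (adjusted p = 0.513) and the actin cross-linker FLNA, a CAV1 partner, -0.07 (0.789). Cavin-2 (SDPR), the muscle caveolin CAV3 and PACSIN1 had at most 3 counts in any library and were not tested.

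Of 7 tested genes of proteins known to enter caveolae, receptors and the enzyme NOS3, TGFBR2, the type II receptor for TGF-beta, rose. It stood at 185, 163 and 165 CPM in high and 116, 113 and 118 CPM in low uptake, far apart (log2 0.57, SE 0.0792, adjusted p = 0.00304), and passed under all 18 other settings. BMPR2, the type II receptor for bone morphogenetic proteins, came next (log2 0.41, adjusted p = 0.0517). The list's median was 0.23 with 7 of 7 values above 0, and NOS3, at 8 to 23 counts with overlapping groups, is included in these. Among all tested genes, 7191 of 14598 were above 0. None of 11 partners of EHD proteins passed in edgeR, and none had an unadjusted p under 0.05; SNAP29 (log2 0.14, adjusted p = 0.392) and EHBP1L1 (0.16, 0.433) had the smallest p. DESeq2 and limma-voom called none of the 11, while EHBP1L1 passed with the GC trend removed (log2 0.16, adjusted p = 0.0257). The median log2 fold change of the 11 was -0.05.

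Among 5 tested flotillin partners PRKACA, the catalytic subunit of protein kinase A, rose by 0.37 (137 ± 4.42 against 106 ± 3.36 CPM, adjusted p = 0.0202), and SORBS2 had 0.37 (0.0636). PRKACA lost its call when high replicate 4 (0.0715) or low replicates 3 (0.0691) or 4 (0.105) were left out singly. In the family that shares the flotillins' SPFH domain none of 7 passed in edgeR (1 at an unadjusted p under 0.05, none in DESeq2 or limma-voom). The prohibitins PHB and PHB2 had -0.19 (adjusted p = 0.188) and -0.15 (0.312), with all low values above all high values, and both passed as lower with the GC trend removed (adjusted p = 0.00966 and 0.0318). Of 11 genes of raft lipids ABCA1, which exports cholesterol, rose by 0.44 (158 ± 16.6 against 117 ± 6.93 CPM, adjusted p = 0.0228), and SPTLC2, of sphingolipid synthesis, had 0.23 (0.173). ABCA1 lost its call with the length trend removed (0.0592) and when high replicate 2 (0.0749) or low replicates 3 (0.0955) or 4 (0.114) were left out singly.

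The genes whose profile over the 6 libraries was most like that of CAV1 were UACA, CDK6, TOR1AIP1, SYNC and ALDH9A1. Likeness was the root-mean-square difference of log2 CPM centred on each gene's mean, which was 0.0266 to 0.0356 for these 5 of 9787 genes of at least 10 CPM, against a range of 0.46 for CAV1 itself. For EHD2 (range 0.72) they included EVA1B, GAA, ECE1 and NLGN2, at 0.0214 to 0.0283. CAV1 was highest in high replicates 2 and 4, whereas EHD2 was highest in high replicate 3. Transcript GC content was 45.6% for CAV1 and 62.4% for EHD2. The tenth of tested genes lowest in GC had a median centred log2 CPM of 0.142, -0.197 and 0.0476 in high replicates 2, 3 and 4. For the tenth highest in GC it was -0.118, 0.152 and -0.0246. The part of such GC trends in these profiles was not tested.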

How the data were processed

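RNA was sequenced from 3 high-uptake and 3 low-uptake libraries (strand-specific kit, per the labels' protocols). Build hg19 and the tools fastp, STAR and featureCounts come from the submitters' processing notes. Tool versions, annotation, strand setting and treatment of multiply matching reads were not given in the sources used here. The deposited files hold whole-number counts per gene symbol with FPKM and TPM, per the file headers; these were the authors' values. Another deposited file lists gene symbols.

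Groups and replicate numbers came from the titles. edgeR 4.0.16 (filterByExpr with a minimum count of 10 and total of 15, TMM, robust quasi-likelihood F-test, no covariate, Benjamini-Hochberg, threshold 0.05) was run on counts; limma 3.58.1 and DESeq2 1.42.0 were alternatives. An SE is the log2 fold change divided by the square root of F. CPM were TMM-scaled. Log CPM used a prior count of 2. TPM served to compare genes; FPKM gave gene-model lengths. Ratios used scipy 1.17.1. GC trends (lowess) used GENCODE transcripts, matched for 14096 of 14598 tested genes. Named genes were all 10, the 2 of smallest p in each list, others past the threshold, and the 5 nearest profiles of CAV1 and of EHD2 (1 of the latter is not reported here); further list members were named after their values were seen. Members and lists were chosen with earlier results of these data known.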

Additional observations from a re-analysis of the deposited data

How the results depend on the processing

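Alternatives were other scalings, tests and filters, removal of length and GC trends, a replicate block, and leaving out each library or both numbered 2. As tested, 626 of all genes, 2 members higher, 0 lower and 5 pathway genes passed. All genes called numbered 2634 with the GC trend removed, 3176 with the replicate block, 4138 with both, and 232 to 738 with a single library left out. Members called higher were 1 with RLE scaling, 1 with upper quartile scaling, 0 with library size alone, 1 with limma-voom, 1 with a filter of 50 counts in 3 libraries, 1 with the length trend removed, and 0 to 1 with a library left out. Members called lower were 1 in DESeq2 (EHD4), 1 without a filter (EHD4), 1 with the GC trend removed (FLOT2), 2 with the replicate block, alone or with the GC trend removed (EHD4 and FLOT2), and 0 to 2 with a library left out. Pathway genes called were 8 in DESeq2, 8 without a filter, 16 with the GC trend removed (2 of them lower), 16 with the replicate block (2 lower), 22 with both (5 lower), and 1 to 7 with a library left out. The cause of these shifts was not tested.

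Under the replicate block the adjusted p of CAV1, EHD2, EHD4 and FLOT2 were 1.24e-05, 7.38e-06, 4.13e-05 and 7.64e-04, and PHB (0.00718), PHB2 (0.0332) and EHBP1L1 (0.0347) also passed. Equal numbers were not taken as pairs: deviations from the group means correlated at 0.452 for replicates 2 and 0.304 for replicates 3, but at 0.0873 for replicates 4. Each high library correlated best with the low library of its own number, for high replicate 4 by a small margin over low replicate 3 (0.0524). Low replicate 4, however, correlated more with high replicate 3 (0.216), so not every library correlated best with its own number.

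CAV2, near 0 as tested, changed sign: -0.012 with upper quartile scaling, -0.021 with library size alone, -0.0027 in DESeq2, -0.0029 with the 50-count filter, -0.0025 with the replicate block, -0.0033 with block and GC, -0.00018 with GC, -0.0045 with length, -0.051 without both libraries numbered 2, and -0.17 to 0.12 with a library left out. Cavin-1 (PTRF) ranged from -0.02 to 0.13 and EHD1 from -0.076 to 0.10 with a library left out, and EHD1 was -0.0073 without both libraries numbered 2. The signs of CAV1, EHD2, EHD3, EHD4, PACSIN2, FLOT2 and the 3 ratios and shares held under every alternative run. At this depth CAV2, with 210 to 978 counts, had the widest interval of the 9.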

Other observations

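Gene models much longer than any transcript were found beyond the neighbourhood of FLOT1. In 117 genes the authors' gene-model length was at least 5 times the longest GENCODE transcript, and 82 of them lie on chromosome 6. Only 42 of these 117 (35.9%) passed the filter on low counts, against 13334 of 18265 genes (73.0%) with a ratio under 2, and their median highest count in a library was 5 against 446. Ratios from 2 to under 5 were seen in 318 genes, of which 54.4% were tested. A gene with no count in any library has no recoverable length and is not in these numbers.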
